A study of Mus musculus with 8 samples.

Results

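The late response of bone marrow mesenchymal stem cells (BMSCs) to scaffold extracts that contained S7 was measured on day 7, as messenger RNA levels across all genes. BMSCs are the stromal progenitors of bone marrow, and in osteogenic culture they turn into osteoblasts that deposit a collagen matrix and then mineralise it. The 8 libraries cover 4 extracts at 2 times of osteogenic differentiation (day 3 and day 7), with 1 library each. In all of them, polycaprolactone (PCL) scaffolds were soaked for 72 h at 1.25 cm2/ml in DMEM with 10% serum, and the wild-type cells, labelled a BMSC cell line, received that extract. The labels name the extracts PCL-O (taken as the blank group by elimination), PCL-S (S7), PCL-E (E7) and PCL-SE (S7 with E7). Both S7 and E7 are peptides according to the series title, and neither a sequence nor a dose is known here. PCL-S and PCL-SE on day 7 are the S7 arms, and PCL-O and PCL-E on day 7 are the arms without S7, so each side has 2 libraries of different arms. The labels give n = 3 for the RNA extraction but the table has 1 column per arm and day, so a p-value rests on the spread that the 8 libraries leave around terms for S7, day and E7, and not on that between cultures.

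Genes entered the description when they had a rat Ensembl identifier and at least 5 CPM (counts scaled to the library total) in both libraries of 1 side on day 7. The rule found 10431 of 22050 such features, and all 10431 passed the low-count filter of the test. Of these, 9529 reached 5 CPM in both libraries of both sides, 553 only in the S7 arms and 349 only in the arms without S7. In the last 2 sets at least 1 library of the other side was under 5 CPM, which favoured the direction that let them in. Entry did not force that direction. Cyp1a1 entered only through the S7 arms, with PCL-O at 0.759 CPM. Its PCL-E value (49.3 CPM) nevertheless lay above PCL-S (34.0) and PCL-SE (31.9). Counts of calls among genes that met the rule are therefore given for the 9529 alone. Counts for gene lists cover all tested genes of a list, so they also hold genes of these 2 sets and genes outside the rule. Pclo (lowest deciding value 5.01 CPM) was just inside the threshold and Pla2g4b (4.99 CPM) just outside it. The labels give Mus musculus and the build mm10, whereas 0 identifiers in the table are mouse ones. The list genes Cxcl12, Dcn and Phex fell outside the rule and are named below as tested genes only. Of the genes named below, Zbtb16, Trim54, Ddit4l, Mt1, Mt2A, Rem2, Xdh and Hopx, among others, entered only through the S7 arms. So did Angptl4, Pdk4, Bmp2, Fgf7, Col7a1, Mmp3, Itga3, Cyp1a1, LOC100910708, AC128848.1 and AABR07000398.1. The arms without S7 alone let in, among others, Col2a1, Col9a2, Frem1, Hmcn1, Abi3bp, Dcdc2, Scg2, Cntn3, Ptprq, Tnfsf18, Smarca1, Igf1, Igfbp3, Myh2 and Alpl. Lpl and Notch3 entered in the same way. The direction of their changes was largely set by how they entered and is description only. The species was not settled, and gene symbols follow the rat identifiers.

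Several of the pathways below are known for the DNA elements through which they act. NRF2, the transcription factor of the oxidative and electrophilic stress response, binds the antioxidant response element, and the metal sensor MTF1 binds metal response elements that switch on metallothioneins. Promoter sequence of the rat was not used here, so the mouse RefSeq windows (GRCm38.p6, the labels' species) are shown for 3 NRF2 target genes and 1 metallothionein gene that rose with S7. Only windows that hold a match are shown. Each sequence is the 250 bases before the annotated start, 5′ to 3′ on the plus strand. Capitals mark matches to TGACNNNGC in the first 3 and to TGCNCNC in the last, on either strand.
Gclm, chr3:122245307-122245556: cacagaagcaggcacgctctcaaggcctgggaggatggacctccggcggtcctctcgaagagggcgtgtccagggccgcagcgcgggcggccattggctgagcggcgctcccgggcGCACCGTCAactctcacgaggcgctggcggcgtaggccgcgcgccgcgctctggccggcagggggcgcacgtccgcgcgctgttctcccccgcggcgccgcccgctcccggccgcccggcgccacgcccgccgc
Txnrd1, chr10:82858956-82859205: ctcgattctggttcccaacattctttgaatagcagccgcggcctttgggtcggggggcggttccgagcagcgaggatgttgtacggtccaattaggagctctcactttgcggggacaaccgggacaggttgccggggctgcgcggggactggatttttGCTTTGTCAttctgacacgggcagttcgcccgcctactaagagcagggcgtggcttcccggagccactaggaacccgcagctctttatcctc
Prdx1, chr4:116685349-116685598: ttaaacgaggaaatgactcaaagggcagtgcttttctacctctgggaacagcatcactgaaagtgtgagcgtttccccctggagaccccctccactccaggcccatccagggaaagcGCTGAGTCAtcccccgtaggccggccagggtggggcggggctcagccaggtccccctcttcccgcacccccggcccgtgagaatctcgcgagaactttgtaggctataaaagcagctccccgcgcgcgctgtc
Mt2, chr8:94172368-94172617: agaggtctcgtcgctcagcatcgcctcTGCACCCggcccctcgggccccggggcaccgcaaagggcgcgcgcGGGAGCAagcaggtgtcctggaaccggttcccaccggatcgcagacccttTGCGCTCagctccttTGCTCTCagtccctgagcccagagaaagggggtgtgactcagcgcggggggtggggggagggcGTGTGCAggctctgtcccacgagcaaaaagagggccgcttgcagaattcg
In windows from 250 bases before to 50 bases after a start, TGACNNNGC occurred in 8 of the 23 NRF2 target genes with a window (34.8%) and in 14.0% of all 27025 genes. TGCNCNC occurred in 6 of 7 genes of the metallothionein and metal transport list (85.7%) and in 53.6% of all genes. GCGTG, the xenobiotic response core, occurred in 5 of 6 aryl hydrocarbon receptor genes (83.3%, against 35.2% of all genes), and the inverted repeat of the glucocorticoid response element occurred in 1 of 16 (6.25%, against 0.537%). Akr1b8, Nqo1, Fth1 and Sqstm1, NRF2 targets that rose with S7, were among the genes without a match to the antioxidant response letters. A match in these windows is a description of letters and not a binding site.

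Depth was even, with total counts of 32950326 to 41754124 per library, so that 3 counts equalled 0.0718 to 0.0910 CPM. The 10 features with the most counts took 7.10% to 7.16% of the counts in the S7 arms on day 7 and 10.4% to 12.8% in the arms without S7. The feature AABR07000398.1, which the table annotates as 18S ribosomal RNA, stood at 1.53 and 30.9 CPM without S7 and at 286 and 189 with it (PCL-O and PCL-E, then PCL-S and PCL-SE, scaled with TMM; log2 fold change 3.92 ± 1.08, adjusted p = 0.022 in edgeR's quasi-likelihood test). The S7 effect also followed gene length: its median log2 fold change went from 0.35 in the shortest of 10 bins of genes (146 to 913 bases) to -0.41 in the longest (5197 to 27228 bases), against 0.04 and -0.02 on day 3. The share of the top 10 features and the length trend thus differed with S7 on day 7, whereas depth did not separate the sides. The share of mitochondrially encoded genes overlapped, at 3.09% and 3.85% without S7 and 3.51% and 3.41% with it. AABR07000398.1 also differed widely between PCL-O and PCL-E. On day 3 it stood at 115 and 55.3 CPM without S7 and at 55.1 and 48.7 with it. The part of these measures of RNA and library quality in the results below was not tested. Medians after removal of the length trend are given where they matter. AABR07000398.1 no longer passed without the PCL-S library of day 7 (3.45) and without the PCL-SE library of day 7 (4.55). AABR07000398.1 was at 2.60 without the PCL-O library of day 7. AABR07000398.1 was at 7.56 without the PCL-E library of day 7.

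**Figure D1:**
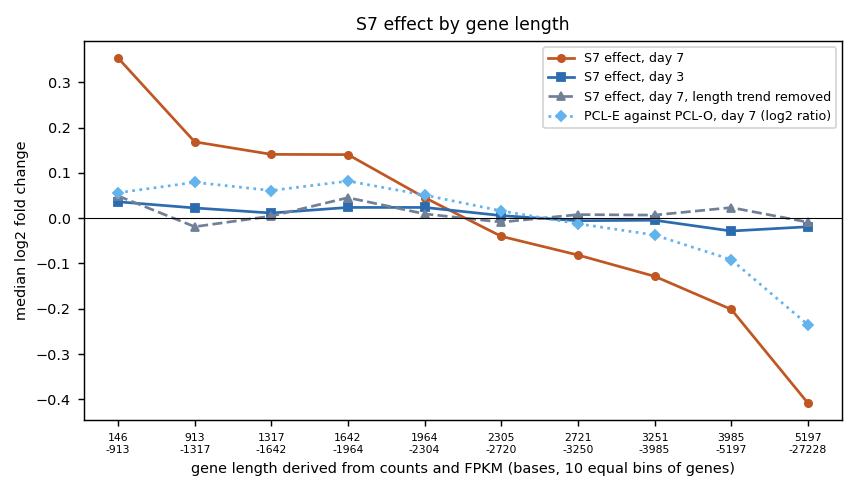
Median log2 fold change (y axis) in 10 equal bins of genes ordered by length in bases (x axis), for S7 on day 7, S7 on day 3, S7 on day 7 after removal of the trend, and the log2 ratio of PCL-E to PCL-O on day 7. The day 7 S7 medians fall from 0.35 to -0.41, the PCL-E to PCL-O ratios also fall in the longest bins, and the day 3 medians stay near 0.

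Levels below are TMM-normalised CPM on day 7 unless day 3 is named; values without S7 are PCL-O and then PCL-E, and values with it are PCL-S and then PCL-SE. A log2 fold change compares the S7 arms with the arms without S7 on day 7 in edgeR's quasi-likelihood fit of all 8 libraries, and its error is the standard error (SE). Where leaving out 1 library or another setting ended a call, made one or moved a fold by over 1.5 times, the log2 fold change under that setting closes the paragraph. Left out there is the test against a 2-fold minimum, which 54 of the 149 named genes did not pass although they were called here. A gene rose or fell when its p, adjusted over all 15942 tested genes (Benjamini-Hochberg), was under 0.05. Of all genes tested, 51.0% passed, 24.9% as higher and 26.2% as lower, so a list is read against those shares. The median of all genes tested was -0.03. With a change of 2-fold or more required as well, 5.95% of the tested genes were higher and 13.3% were lower. Among the 9529 genes at 5 CPM or more on both sides, 59.3% passed, and 3234 rose (33.9%) and 2418 fell (25.4%), with 449 (4.71%) and 642 (6.74%) of them by 2-fold or more. The 2 sides did not overlap for 75.1% of all genes tested and 79.1% of the 9529. The count of calls over all genes was 8137, and it was 5003 without the PCL-S library of day 7. The balance of directions depended on scaling: 48.7% of the calls were higher with TMM, 65.2% with total-count scaling (which raised the median of all genes to 0.19) and 41.5% with upper-quartile scaling.

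**Figure D2:**
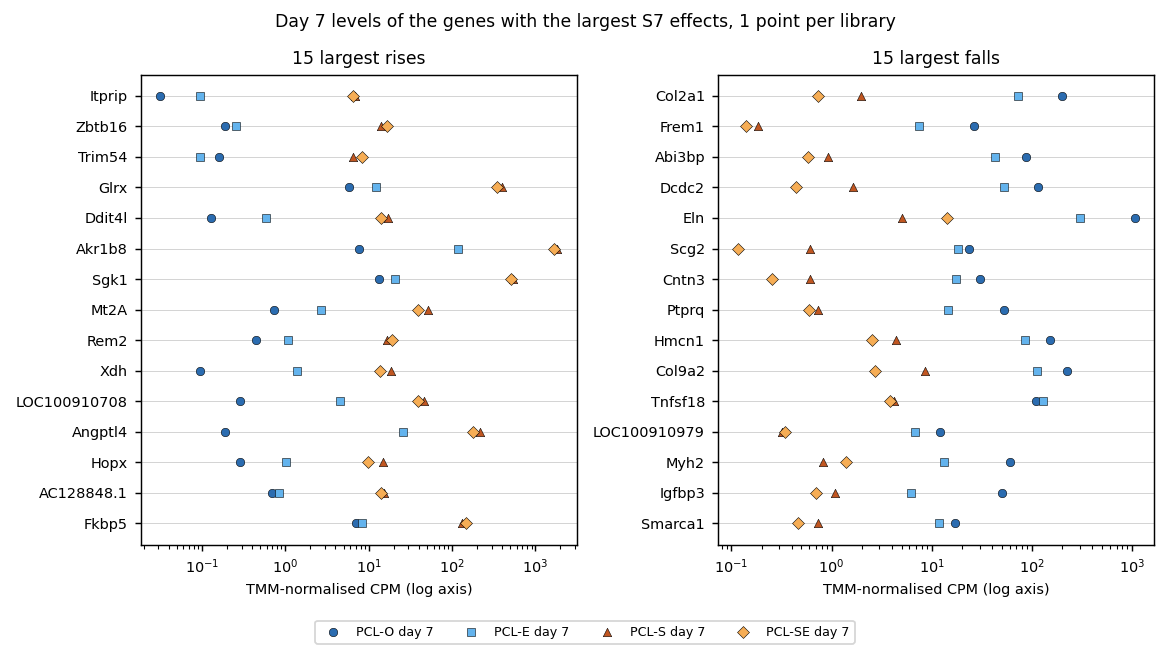
Normalised CPM (x axis, log scale) of the 15 genes with the largest rises (left) and the 15 with the largest falls (right), 1 point per day 7 library. The S7 arms lie on 1 side of the arms without S7 in every row, since only genes without overlap were eligible. They nearly coincide for most rises and stand further apart for Scg2, Dcdc2, Col9a2 and Eln, and PCL-E lies between PCL-O and the S7 arms for Akr1b8 and Angptl4.

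The extracellular matrix programme was lower with S7. Of 24 tested collagen chain genes, 22 fell and 1 rose, with a median log2 fold change of -1.38 (-1.04 with the length trend removed). Col1a1, a chain of the type I collagen that makes up most of bone matrix, stood at 25943 and 15055 CPM without S7 and at 4924 and 4562 with it (-2.09 ± 0.20, adjusted p = 0.000433). Its partner chain Col1a2 had a log2 fold change of -2.18 ± 0.19, and a second feature annotated as the same gene makes that value uncertain. Both S7 arms lay far below both arms without S7. Col3a1, the fibrillar collagen of soft connective tissue, stood at 8815 and 6585 CPM without S7 and at 1942 and 1801 with it (-2.03 ± 0.14). Col12a1, which coats collagen fibrils, stood at 6282 and 2912 CPM without S7 and at 817 and 968 with it (-2.29 ± 0.29), and the basement membrane chain Col4a1 changed by -1.41. Col2a1, the main collagen of cartilage, had the largest fall of the chains, at 201 and 73.0 CPM without S7 and at 1.95 and 0.738 with it (-6.62 ± 0.56, adjusted p = 0.000285). The exception was Col7a1, the chain of anchoring fibrils, which rose from 3.27 in PCL-O and 5.90 in PCL-E to 13.1 in PCL-S and 17.7 in PCL-SE (1.75 ± 0.21). Its log2 fold change on day 3 was 4.85, and the S7 effect changed by -3.10 from day 3 to day 7. Col12a1 was at -1.71 with the length trend removed.

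Enzymes that modify, fold and crosslink collagen fell as well, 18 of 21 tested with 1 rise and a median of -0.97. Loxl2, a lysyl oxidase that crosslinks collagen, changed by -1.83 ± 0.10. Plod2, which hydroxylates the lysines used in crosslinks, changed by -1.94 ± 0.12, and P4ha1, a catalytic subunit of prolyl hydroxylase, by -1.53 ± 0.10. Serpinh1, the chaperone of procollagen, stood at 2631 and 2659.7 CPM without S7 and at 1230.0 and 1150.0 with it (-1.15 ± 0.08, adjusted p = 0.000186), with no overlap between the sides. Fkbp10, another procollagen chaperone, was the 1 member that rose (0.33 ± 0.11). Fkbp10 no longer passed with upper-quartile scaling (0.26), in the day 7 libraries alone (0.32), without the PCL-O library of day 3 (0.33), without the PCL-S library of day 3 (0.34), without the PCL-E library of day 3 (0.33), without the PCL-SE library of day 3 (0.34), without the PCL-O library of day 7 (0.20), without the PCL-S library of day 7 (0.26) and without the PCL-SE library of day 7 (0.41).

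Elastic fibre genes fell in 14 of 17 cases and rose in 0, with a median of -1.24. Eln, which encodes elastin, stood at 1059 and 299 CPM without S7 and at 5.04 and 14.3 with it (-6.08 ± 0.79, adjusted p = 0.00113), and PCL-E was well below PCL-O. Fbn1, the main fibrillin of the microfibrils around elastin, stood at 2819 and 1449 CPM without S7 and at 284 and 257 with it (-2.94 ± 0.24, adjusted p = 0.000242). Fbn2 changed by -3.75 ± 0.48, and Fbln5, which guides elastin onto microfibrils, by -3.07 ± 0.22. Basement membrane genes had a median of -2.18, and 14 of 16 fell while 0 rose. The largest were Frem1, at 26.2 and 7.49 CPM without S7 and at 0.185 and 0.138 with it (-6.52 ± 0.45, adjusted p = 0.000176; 7 and 6 counts with S7), and Hmcn1, at 150.1 and 84.5 CPM without S7 and at 4.44 and 2.51 with it (-5.07 ± 0.23, adjusted p = 8.66e-05), both extracellular proteins that link epithelia and other cells to the matrix. The nidogen Nid2, which ties laminin to collagen IV, changed by -2.79 ± 0.18. Eln was at -4.79, Fbn2 at -2.81 and Frem1 at -5.82 without the PCL-O library of day 7. Eln was at -5.17 without the PCL-S library of day 7. Eln was at -7.03 and Fbn2 at -4.49 without the PCL-E library of day 7. Eln was at -7.21 without the PCL-SE library of day 7. Hmcn1 was at -4.31 with the length trend removed.

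Among fibronectin, tenascin and matricellular genes, 12 of 19 fell and 2 rose (median -0.78). Fn1, the adhesive glycoprotein fibronectin, stood at 28329 and 19503 CPM without S7 and at 8307 and 7633 with it (-1.57 ± 0.14, adjusted p = 0.000294). Postn, a matricellular protein of periosteum, stood at 11929 and 7411 CPM without S7 and at 1174 and 1227 with it (-2.97 ± 0.20, adjusted p = 0.000161), and Tnc, the tenascin of injured and growing tissue, changed by -3.66 ± 0.17. Thbs1, which activates latent TGF-beta, changed by -1.76 ± 0.08. Smoc2, a matricellular calcium-binding protein, was 1 of the 2 that rose (1.42 ± 0.17). Of 10 small leucine-rich proteoglycans, which bind collagen fibrils, 8 fell and 0 rose. Decorin (Dcn) stood at 3.12 and 3.45 CPM without S7 and at 0.502 and 0.277 with it (-3.12 ± 0.34, adjusted p = 0.000644), Bgn changed by -1.60 ± 0.17 and Lum by -1.54 ± 0.29. Of 17 matrix metalloproteinases and inhibitors, 9 fell and 3 rose. Timp3, a matrix-bound inhibitor, stood at 167 and 77.9 CPM without S7 and at 6.18 and 4.96 with it (-4.40 ± 0.26, adjusted p = 0.000128). Mmp3, the stromelysin, rose (1.69 ± 0.27). Ccdc80, a matrix protein of fat and bone, was among the 10 genes that lost most normalised CPM, at 6769.8 and 5165 CPM without S7 and at 719 and 614 with it (-3.16 ± 0.12, adjusted p = 7.56e-05).

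Contractile and adhesion genes moved in the same direction. Of 16 tested smooth muscle and myofibroblast genes, 13 fell and 2 rose, with a median of -1.55. Acta2, the actin of myofibroblasts, stood at 8765 and 6985 CPM without S7 and at 1829 and 1616 with it (-2.19 ± 0.11, adjusted p = 8.8e-05). Tagln changed by -1.18 ± 0.10, the actin-binding calponin Cnn1 by -1.92 ± 0.18, and Myh11, the smooth muscle myosin, by -3.66 ± 0.35. Among 24 integrin and focal adhesion genes, 18 fell and 3 rose. Itgb1, the beta subunit shared by collagen and fibronectin receptors, stood at 3667 and 3436 CPM without S7 and at 1602 and 1486 with it (-1.20 ± 0.09, adjusted p = 0.00018). Itga11, a collagen receptor subunit of fibroblasts, changed by -1.89 ± 0.11, and Vcl, the vinculin of focal adhesions, by -1.19 ± 0.14. Itga3, a laminin receptor subunit, rose (1.90 ± 0.33), as did the adhesion adaptor Pxn (1.32 ± 0.09). Of 15 cadherin genes, 9 fell and 0 rose. Cdh2, the N-cadherin of stromal cell contacts, changed by -2.07 ± 0.19, and Cdh11, the cadherin of osteoblasts, by -1.10 ± 0.09. Of 18 targets and partners of YAP and TAZ, the mechanosensitive coactivators, 11 fell and 0 rose, with a median of -0.49 (-0.25 with the length trend removed); Ankrd1 changed by -2.05 ± 0.38 and Ctgf by -0.89 ± 0.10. Ankrd1 was at -2.80 without the PCL-S library of day 7. Ankrd1 was at -1.41 without the PCL-SE library of day 7. Myh11 was at -2.94 without the PCL-O library of day 7.

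Bone and cartilage genes split. Of 23 tested osteoblast genes, 10 fell and 8 rose, with a median of 0.19 (0.09 with the length trend removed). Alpl, the phosphatase that provides phosphate for mineral, stood at 13.8 and 8.43 CPM without S7 and at 0.607 and 1.15 with it (-3.64 ± 0.38, adjusted p = 0.000523). Phex, a peptidase of osteocytes, stood at 5.31 and 2.35 CPM without S7 and at 0.238 and 0.346 with it (-3.60 ± 0.43). For both genes, the S7 arms lay below both arms without S7. Sparc, a collagen-binding protein of bone matrix, changed by -1.44 ± 0.09. Runx2, the transcription factor that commits cells to bone, had a log2 fold change of 0.36 ± 0.13, adjusted p = 0.0541, and did not pass. Bmp2, a bone-inducing ligand, rose from 2.86 and 4.68 in PCL-O and PCL-E to 21.1 and 16.8 in PCL-S and PCL-SE (2.33 ± 0.25). Phospho1, a phosphatase of matrix vesicles, rose too (2.51 ± 0.32). Spp1, which encodes the mineral-binding protein osteopontin, stood at 1358 and 1002 CPM without S7 and at 1461 and 2418 with it (0.70 ± 0.24, adjusted p = 0.0485), and PCL-S and PCL-SE were well apart. Of 16 chondrocyte genes, 12 fell and 1 rose (median -1.32). Besides Col2a1, Col9a2, another cartilage collagen chain, stood at 225 and 112 CPM without S7 and at 8.55 and 2.72 with it (-4.95 ± 0.34, adjusted p = 0.000173). Tnfrsf11b, the osteoprotegerin that restrains osteoclasts, changed by -1.63 ± 0.14, and Vdr, the vitamin D receptor, by -1.64 ± 0.20. Spp1 no longer passed in DESeq2 (0.70), with DESeq2-style size factors (0.70), with upper-quartile scaling (0.63), in the day 7 libraries alone (0.71), with the length trend removed (0.57), without the PCL-O library of day 3 (0.69), without the PCL-S library of day 3 (0.71), without the PCL-E library of day 3 (0.70), without the PCL-SE library of day 3 (0.71), without the PCL-E library of day 7 (0.38) and without the PCL-SE library of day 7 (0.24). Runx2 passed with total-count scaling (0.58), with the length trend removed (0.70), without the PCL-S library of day 3 (0.36) and without the PCL-SE library of day 3 (0.36). Alpl was at -4.23 and Phex at -4.20 without the PCL-SE library of day 7. Col9a2 was at -5.56 without the PCL-S library of day 7.

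Signalling pathways differed in how many genes fell, from 7 of 10 in the Notch pathway and 9 of 13 in the IGF axis to 7 of 17 in the TGF-beta pathway. In the IGF axis 1 gene rose, and the median was -2.47. The ligand Igf1 stood at 58.9 and 19.4 CPM without S7 and at 2.48 and 3.71 with it (-3.47 ± 0.47, adjusted p = 0.00133), and the binding protein Igfbp3 at 50.3 and 6.23 CPM without S7 and at 1.08 and 0.692 with it (-4.66 ± 0.76, adjusted p = 0.00268). On day 3 the log2 fold changes were -3.45 for Igf1 and -2.73 for Igfbp3. The receptor Igf1r did not pass on day 7 (0.06 ± 0.10). Of 10 Notch pathway genes, 7 fell and 0 rose. The receptor Notch3 changed by -2.87 ± 0.34 and the ligand Jag1 by -2.36 ± 0.17. Of 25 Wnt pathway genes, 15 fell and 2 rose. Wnt2 changed by -2.10 ± 0.27, the receptor Fzd2 by -1.30 ± 0.14, and Axin2, a feedback target, by -0.88 ± 0.16. Tcf7 and the non-canonical ligand Wnt5a were the 2 that rose (1.30 ± 0.24 and 1.02 ± 0.15). Of 20 BMP pathway genes, 10 fell and 6 rose. The ligand Bmp4 fell (-1.16 ± 0.15). The ID genes, which are direct BMP targets, rose: Id1 stood at 21.0 and 51.3 CPM without S7 and at 105 and 101 with it (1.57 ± 0.32, adjusted p = 0.00651) and Id3 changed by 0.96 ± 0.16. In the TGF-beta pathway 2 rose, and the median was -0.03 (0.02 with the length trend removed). The ligands Tgfb2 (-1.93 ± 0.13) and Tgfb3 (-2.05 ± 0.13) fell, while Tgfb1 (0.09 ± 0.13) did not pass. Among 24 genes of the PDGF, FGF, VEGF and HGF families, 13 fell and 4 rose. Vegfa, the main angiogenic factor, changed by -1.22 ± 0.14, and Fgf7, an epithelial growth factor of stroma, rose (2.72 ± 0.54). Id1 no longer passed without the PCL-S library of day 7 (1.34). Igf1r passed with total-count scaling (0.28) and with the length trend removed (0.27). Tgfb1 passed without the PCL-O library of day 7 (0.33). Fgf7 was at 1.86, Igf1 at -2.74 and Igfbp3 at -3.01 without the PCL-O library of day 7. Fgf7 was at 4.19, Id1 at 2.29, Igf1 at -4.09 and Igfbp3 at -5.66 without the PCL-E library of day 7. Igf1 was at -2.77 and Notch3 at -3.52 without the PCL-S library of day 7. Igf1 was at -4.27 without the PCL-SE library of day 7.

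Genes of the oxidative stress response were higher with S7. Of 27 tested NRF2 targets, 22 rose and 1 fell, with a median log2 fold change of 1.62 against 0.08 on day 3. Akr1b8, an aldo-keto reductase, stood at 7.73 and 117 CPM without S7 and at 1834 and 1653 with it (5.23 ± 1.01, adjusted p = 0.00534). Nqo1, a quinone reductase, stood at 288 and 1179.7 CPM without S7 and at 2583 and 2512 with it (1.95 ± 0.50, adjusted p = 0.0169), and Hmox1, which breaks down haem, at 191 and 674 CPM without S7 and at 2529 and 2393 with it (2.62 ± 0.49, adjusted p = 0.00471). PCL-E lay above PCL-O for all 3, and the S7 arms lay above both. The ferritin heavy chain gene Fth1, which stores iron, stood at 470.0 and 1062 CPM without S7 and at 5965 and 4956 with it (2.90 ± 0.32, adjusted p = 0.000677). A feature annotated as ferritin light chain, LOC100360087, stood at 1365 and 2198 CPM without S7 and at 6343 and 6525 with it (1.87 ± 0.18). Best1, whose neighbour in the mouse annotation is Fth1, rose too (2.78 ± 0.38), and reads of the 2 genes may not have been told apart. The 3 genes whose promoters are shown above had smaller changes: Gclm, the modifier subunit of glutamate-cysteine ligase, stood at 17.6 and 27.4 CPM without S7 and at 50.0 and 50.4 with it (1.16 ± 0.18, adjusted p = 0.00219). Txnrd1, the cytosolic thioredoxin reductase, stood at 229 and 323 CPM without S7 and at 784 and 701 with it (1.44 ± 0.16, adjusted p = 0.000671), and Prdx1, a peroxiredoxin, at 218 and 328 CPM without S7 and at 577 and 598 with it (1.12 ± 0.15, adjusted p = 0.00121). Sqstm1, a selective autophagy receptor, rose as well, at 350.4 and 495 CPM without S7 and at 1372 and 1323 with it (1.68 ± 0.15). The cystine carrier Slc7a11 did not pass (0.47 ± 0.19, adjusted p = 0.0793). NRF2's own gene, Nfe2l2, stood at 204 and 242 CPM without S7 and at 328 and 324 with it (0.55 ± 0.09, adjusted p = 0.00293) and its inhibitor Keap1 at 43.3 and 40.0 CPM without S7 and at 67.1 and 60.3 with it (0.61 ± 0.07, adjusted p = 0.000914); both were named after their values were seen. Nqo1 no longer passed in the day 7 libraries alone (1.79) and without the PCL-S library of day 7 (1.62). Slc7a11 passed with total-count scaling (0.69), with the length trend removed (0.95) and without the PCL-E library of day 7 (0.82). Akr1b8 was at 3.96, Best1 at 2.14, Hmox1 at 1.83 and Nqo1 at 1.11 without the PCL-O library of day 7. Akr1b8 was at 4.57 without the PCL-S library of day 7. Akr1b8 was at 7.77, Best1 at 3.57, Fth1 at 3.54, Hmox1 at 3.73 and Nqo1 at 3.14 without the PCL-E library of day 7. Akr1b8 was at 6.05 without the PCL-SE library of day 7.

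The glutathione and thioredoxin enzymes outside that list rose in 19 of 26 cases and fell in 3, with a median of 0.66. Glrx, the cytosolic glutaredoxin, stood at 5.85 and 12.3 CPM without S7 and at 402 and 347 with it (5.43 ± 0.32, adjusted p = 0.000128). Gstp1, a glutathione transferase, changed by 2.24 ± 0.20, catalase (Cat) by 1.75 ± 0.15 and Gpx4, which reduces lipid peroxides, by 1.35 ± 0.13. Of 12 metallothionein and metal transport features, 5 rose and 4 fell (median 0.12), and their summed level was flat, at 528 and 518 CPM without S7 and at 508 and 516 with it. Mt1 and Mt2A made up a small part of that sum in each library, so it does not describe them. Mt2A, the metallothionein counterpart of the mouse Mt2 shown above, stood at 0.731 and 2.65 CPM without S7 and at 51.2 and 38.8 with it (4.76 ± 0.53, adjusted p = 0.000696), and Mt1 at 0.477 and 0.141 CPM without S7 and at 5.44 and 4.61 with it (4.13 ± 0.41, adjusted p = 0.000451). The level of Mt1 was low, and another feature annotated as a metallothionein-1 copy could share its reads. Tfrc, the receptor that brings iron in, fell (-0.53 ± 0.08). Of 8 aryl hydrocarbon receptor genes, 5 rose and 1 fell. Ahr itself, the receptor, fell (-1.16 ± 0.23). Cyp1a1, the best known target, stood at 0.795 and 48.4 CPM without S7 and at 29.6 and 27.6 with it (0.76 ± 1.29, adjusted p = 0.652); the sides overlapped. Ahr no longer passed without the PCL-S library of day 7 (-0.92). Cyp1a1 passed without the PCL-E library of day 7 (5.32). Cyp1a1 passed with the opposite sign without the PCL-O library of day 7 (-0.90). Cyp1a1 was at 0.00 without the PCL-S library of day 7. Cyp1a1 was at 2.10 and Mt2A at 5.37 without the PCL-SE library of day 7. Mt1 was at 4.94 and Mt2A at 4.03 without the PCL-O library of day 7. Mt2A was at 5.98 without the PCL-E library of day 7.

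Genes induced by glucocorticoids were higher, with 15 of 17 risen, 0 fallen and a list median of 1.67. Sgk1, a kinase that controls ion transport, stood at 13.3 and 21.0 CPM without S7 and at 540.5 and 512 with it (4.96 ± 0.20, adjusted p = 7.56e-05). Fkbp5, a co-chaperone of the glucocorticoid receptor, stood at 6.99 and 8.32 CPM without S7 and at 130.1 and 146 with it (4.18 ± 0.26, adjusted p = 0.000144), and Zbtb16, a transcription factor, at 0.191 and 0.258 CPM without S7 and at 14.2 and 16.7 with it (6.06 ± 0.26, adjusted p = 8e-05). Without S7, Zbtb16 rested on 6 and 11 counts. Tsc22d3, the leucine zipper protein GILZ, changed by 2.17 ± 0.11 and Klf9 by 1.11 ± 0.08. Log2 ratios of PCL-E to PCL-O, with 2 CPM added, were 0.59 for Sgk1, 0.20 for Fkbp5 and 0.04 for Zbtb16. Both S7 arms lay far above both of these arms for each gene. On day 3, 12 of the 17 were higher and 0 lower, with a list median of 1.37, and the change of the S7 effect from day 3 to day 7 was 2.59 (adjusted p = 0.00194) for Sgk1 and 0.44 (adjusted p = 0.365) for Fkbp5.

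Genes that burn fatty acids rose, while other lipid lists were mixed. Of 20 fatty acid oxidation genes and PPAR targets, 17 rose and 0 fell, with a median of 1.18. Angptl4, an inhibitor of lipoprotein lipase, stood at 0.191 and 25.9 CPM without S7 and at 215 and 180.3 with it (4.36 ± 1.19, adjusted p = 0.0213), with PCL-E far above PCL-O. Pdk4, which holds pyruvate back from oxidation, stood at 0.954 and 5.45 CPM without S7 and at 45.4 and 50.5 with it (3.98 ± 0.57, adjusted p = 0.00169), and Cpt1a, the carnitine transferase at the entry to mitochondria, at 15.5 and 73.3 CPM without S7 and at 221 and 233 with it (2.50 ± 0.56, adjusted p = 0.00977). Among 11 adipocyte genes, 8 rose and 2 fell, and their summed level overlapped between the sides, at 480.1 and 299 CPM without S7 and at 444 and 415 with it. Pparg, the master regulator of fat cells, changed by 3.17 ± 0.56 and Plin2, a lipid droplet coat protein, by 1.78 ± 0.24. Lpl, the lipase itself, fell (-1.61 ± 0.27). Of 16 chemokine and cytokine genes, 8 rose and 5 fell; Cxcl12, the stromal factor that holds stem cells in marrow, changed by -3.11 ± 0.28. The other leading rises were Xdh, the xanthine dehydrogenase of purine breakdown (4.49 ± 0.77), Hopx, a homeodomain cofactor (4.27 ± 0.66), Rem2, a small GTPase of calcium channels (4.58 ± 0.28), Ddit4l (5.32 ± 0.56), Trim54 (5.87 ± 0.33) and the features LOC100910708 (4.37 ± 0.76) and AC128848.1 (4.22 ± 0.21). The low side was close to the counting limit for some of these, with 3 counts in PCL-O for Xdh, 4 for Ddit4l, and 5 and 4 in PCL-O and PCL-E for Trim54. On day 3 the log2 fold changes were 5.27 for Xdh, 4.29 for Hopx, 1.60 for Rem2 and 0.53 for Ddit4l. They were -0.19 for Trim54, 1.26 for LOC100910708 and 2.94 for AC128848.1. The interaction test did not pass for Xdh, Hopx and LOC100910708. Angptl4 no longer passed in the day 7 libraries alone (3.89) and without the PCL-S library of day 7 (3.48). Cpt1a no longer passed without the PCL-S library of day 7 (2.24). Angptl4 was at 2.75, Cpt1a at 1.62, Ddit4l at 4.49, Hopx at 3.64, LOC100910708 at 3.26, Pdk4 at 3.13, Pparg at 2.33 and Xdh at 3.58 without the PCL-O library of day 7. Angptl4 was at 10.17, Cpt1a at 3.88, Ddit4l at 7.14, Hopx at 5.37, LOC100910708 at 7.19, Pdk4 at 5.66, Pparg at 4.65, Rem2 at 5.20 and Xdh at 7.32 without the PCL-E library of day 7. Angptl4 was at 5.92, Hopx at 5.12, LOC100910708 at 5.31, Pparg at 3.87 and Xdh at 5.35 without the PCL-SE library of day 7. Hopx was at 3.48, LOC100910708 at 3.70, Pparg at 2.52 and Xdh at 3.78 without the PCL-S library of day 7. Xdh was at 5.22 in DESeq2.

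The protein-making and energy machinery moved in small, even steps. Of 34 cytosolic ribosomal protein features, 30 rose and 0 fell (median 0.82), and all 23 mitochondrial ribosomal protein genes tested rose (median 0.76). With the length trend removed the medians were 0.55 and 0.65. Rps2, of the small ribosomal subunit, stood at 685 and 878 CPM without S7 and at 1701 and 1852 with it (1.19 ± 0.12, adjusted p = 0.000445). Rplp0, of the ribosomal stalk, changed by 0.92 ± 0.11, and ribosomal protein reads can be shared with processed copies. Of 27 respiratory chain genes, 24 rose and 0 fell (median 0.74, 0.54 with the length trend removed); Uqcrc1, a core subunit of complex III, changed by 1.17 ± 0.08. Of 29 proteasome subunits, 27 rose and 0 fell (median 0.50), and Psmb5, the subunit with chymotrypsin-like activity, changed by 0.90 ± 0.08. Of 18 glycolysis genes, 13 rose and 0 fell; Ldha, which makes lactate, changed by 0.96 ± 0.10. The summed CPM of the cytosolic ribosomal protein features stood at 9959 and 12601 CPM without S7 and at 19695 and 19875 with it. The sums of the other 4 lists were also higher in both S7 arms than in both arms without S7.

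The endoplasmic reticulum went the other way. Of 20 chaperone and quality control genes, 14 fell and 0 rose, with a median of -0.74. Hspa5, the chaperone BiP, stood at 1174 and 1352 CPM without S7 and at 499.8 and 531 with it (-1.29 ± 0.10, adjusted p = 0.000207), and Hsp90b1, its partner GRP94, at 1096 and 1189.9 CPM without S7 and at 356 and 368 with it (-1.66 ± 0.08, adjusted p = 9.81e-05). The protein disulfide isomerase Pdia4 changed by -1.45 ± 0.08 and calreticulin (Calr) by -1.11 ± 0.09. Xbp1, the transcription factor of the unfolded protein response, changed by -0.38 ± 0.07, and Ddit3 (CHOP) rose (0.77 ± 0.11). Among 22 ATF4 target genes, 7 rose and 7 fell, and Atf4 itself was at -0.02 ± 0.11. Of 23 splicing factors, 12 fell and 5 rose; Srsf1 changed by -0.93 ± 0.08. For cholesterol synthesis, 6 of 20 fell and 2 rose, and the list median changed sign with total-count scaling, from -0.18 to 0.05. Xbp1 no longer passed with total-count scaling (-0.15).

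**Figure D3:**
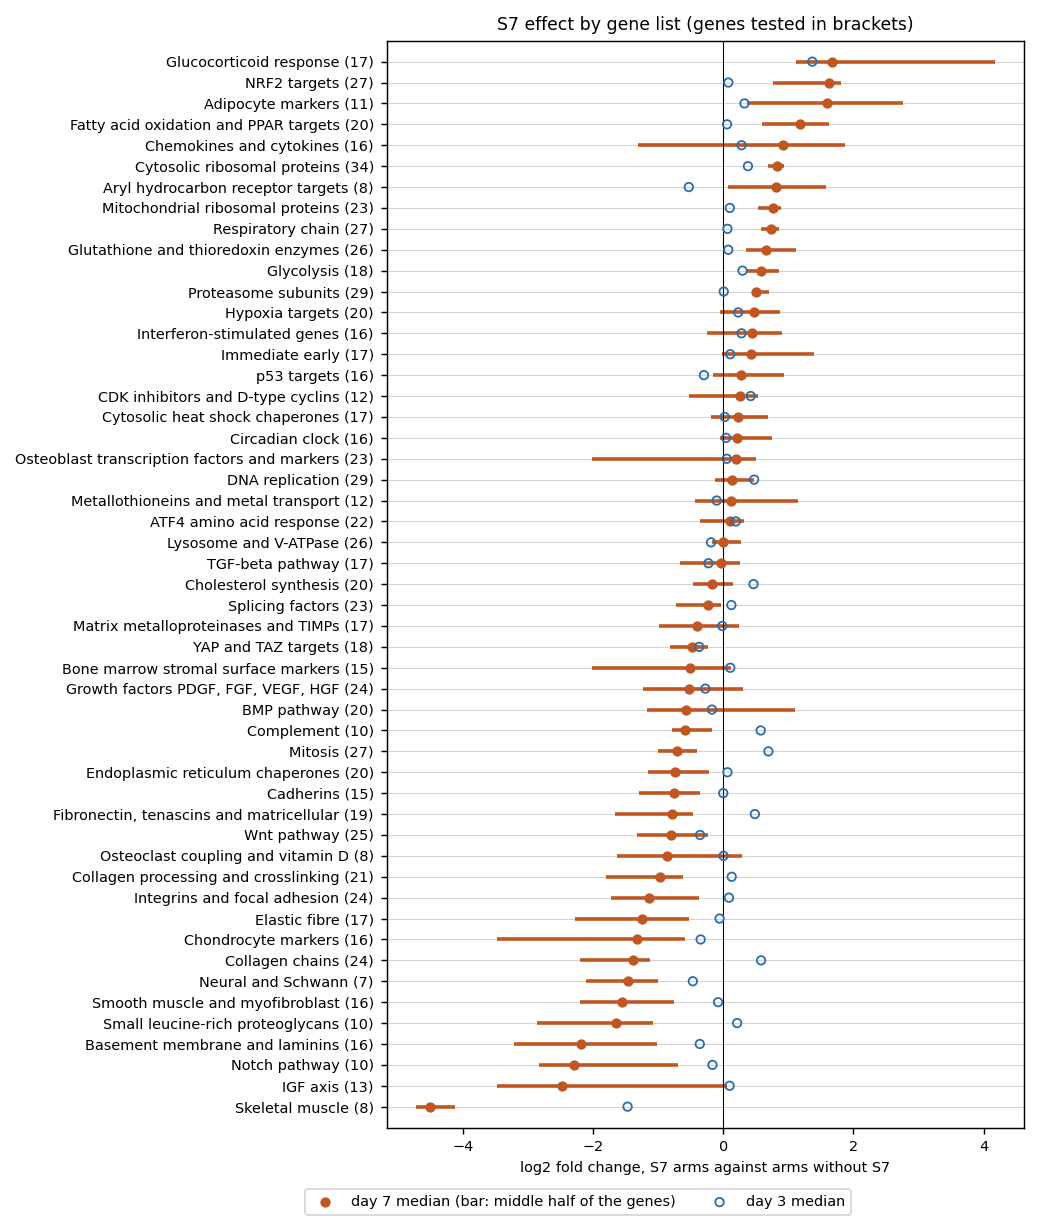
Median log2 fold change with S7 on day 7 (filled points, with bars over the middle 50% of genes) and on day 3 (open points) for each gene list with at least 5 tested genes. Glucocorticoid, NRF2, lipid, ribosomal and respiratory lists lie to the right on day 7, and matrix, contractile, Notch and IGF lists lie to the left.

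Mitosis genes were lower with S7 on day 7 and higher on day 3. Of 27 tested, 21 fell on day 7 (median -0.71) and 26 rose on day 3 (median 0.69). On day 3, 7.10% of all genes tested were called higher and 6.87% lower. For 26 of the mitosis genes the difference between the days passed the interaction test as lower on day 7, against 15.5% of all genes tested. Top2a, the topoisomerase that untangles chromosomes, stood at 111 and 92.3 CPM without S7 and at 43.4 and 40.9 with it on day 7 (-1.27 ± 0.11, adjusted p = 0.000316). On day 3 it stood at 88.6 and 100.3 CPM without S7 and at 157 and 151 with it, a log2 fold change of 0.70 ± 0.11. Mki67, the proliferation antigen Ki-67, changed by -0.74 ± 0.17 on day 7 and by 0.89 ± 0.17 on day 3, and Kif23, a motor of cell division, by -1.63 ± 0.09 and 0.35 ± 0.09. In each case the order of the sides was turned between the days. Of 29 DNA replication genes, 12 were higher and 4 lower on day 7, and 14 were higher on day 3. Cdkn1a, the inhibitor p21, rose on day 7 (0.95 ± 0.11) and fell on day 3 (-0.62 ± 0.11), as did Mdm2, a p53 target (1.09 ± 0.13 and -0.56 ± 0.13). Mki67 no longer passed with the length trend removed (-0.18) and without the PCL-S library of day 7 (-0.61).

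On day 3, 10 of the 24 collagen chain genes were higher with S7 and 4 were lower. Their list median was 0.58 on day 3 and -1.38 on day 7, and the interaction test passed for 22 of 24 as lower on day 7. Col5a1, which sets the diameter of collagen fibrils, stood at 1634 and 1732 CPM without S7 and at 3898 and 3492 with it on day 3 (1.13 ± 0.10) and at 1863 and 1624 CPM without S7 and at 709 and 693 with it on day 7 (-1.31 ± 0.10, adjusted p = 0.000215). Decorin was higher on day 3 (1.63 ± 0.32) and lower on day 7. Across the 9529 genes, the S7 effects of the 2 days had r = 0.385 and rho = 0.289, a correlation across genes that are not independent replicates. Of the 449 genes that rose 2-fold or more on day 7, 123 were also called higher on day 3 and 10 lower. Of the 642 that fell 2-fold or more, 209 were also called lower on day 3 and 53 higher. These counts are read against the 7.10% of all genes tested that were called higher on day 3 and the 6.87% called lower.

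**Figure D4:**
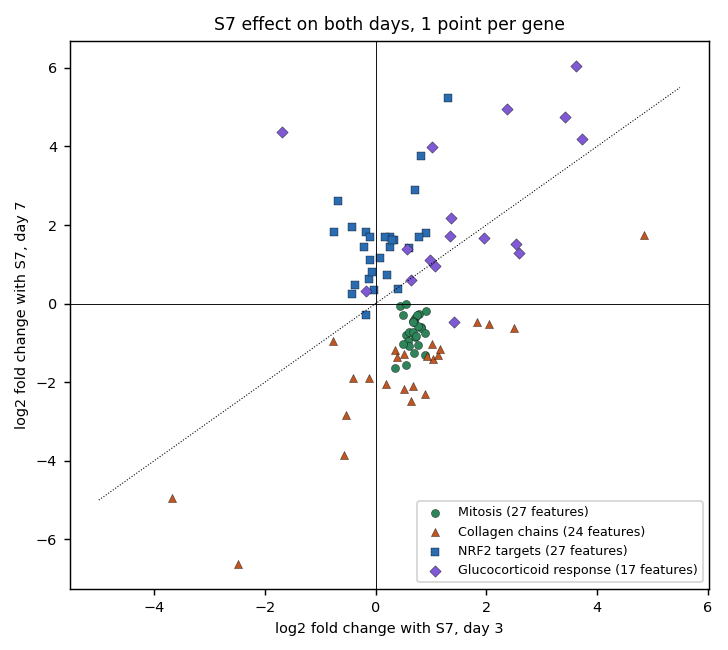
Log2 fold change with S7 on day 3 (x axis) against day 7 (y axis), 1 point per gene, for mitosis, collagen, NRF2 and glucocorticoid genes. Mitosis genes lie to the right of 0 on the x axis and at or below 0 on the y axis. NRF2 genes spread upwards near 0 on day 3, and most glucocorticoid genes are positive on both days.

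The labelled cell type was checked against its markers. Of 15 stromal surface genes tested, 8 fell and 3 rose, and their summed level stood at 5925 and 5315 CPM without S7 and at 3267 and 3194 with it. The largest part of that sum was the integrin Itgb1, at 3667 and 3436 CPM without S7 and at 1602 and 1486 with it. Cd44, a hyaluronan receptor, stood at 236 and 285 CPM without S7 and at 439.8 and 435 with it (0.75 ± 0.09, adjusted p = 0.00101) and Thy1 (CD90) at 441 and 492 CPM without S7 and at 364 and 332 with it (-0.42 ± 0.12, adjusted p = 0.0233). Mcam stood at 171 and 106 CPM without S7 and at 16.1 and 14.1 with it. Cd200 was also lower in both S7 arms, whereas Pdgfra was higher in both. Other stromal markers were low in all day 7 libraries: Nt5e (at most 3.75 CPM), Lepr (3.67), Vcam1 (0.493) and Ngfr (0.185). The stromal list therefore gave only partial evidence for the labelled cell type. Several defining markers of other cells (Cd3e, Adgre1, Kdr, Cdh5, Sox10 and Hbb) had no count in the 4 libraries, and the leukocyte antigen Ptprc had at most 2 counts. A count of 0 allows up to 3 counts, and such limits cover counting error only. Of the marker features in the table, 8 of 14 macrophage, 7 of 11 lymphocyte, 5 of 10 endothelial, 4 of 8 erythroid, 8 of 9 epithelial and 10 of 12 neural ones had any count. The summed macrophage level stood at 10.1 and 9.89 CPM without S7 and at 18.0 and 16.4 with it, and most of it was Cd14 (8.81, 8.88, 16.5 and 15.5 CPM in the same order). The lymphocyte sum stood at 4.67 and 8.60 CPM without S7 and at 0.660 and 0.507 with it, most of it Ighm without S7 (4.13 and 8.08 CPM). The endothelial sum stood at 25.6 and 15.6 CPM without S7 and at 4.44 and 4.98 with it, most of it Erg without S7 (21.8 and 10.8 CPM). The neural sum stood at 129.8 and 75.3 CPM without S7 and at 32.4 and 35.6 with it, carried by Map2, a neuronal microtubule protein, which fell from 89.6 and 37.0 CPM without S7 (-2.17 ± 0.42), and by Scg2, while S100b rose (1.21 ± 0.13). The epithelial sum overlapped between the sides, at 3.97 and 11.6 CPM without S7 and at 9.08 and 7.24 with it. The summed level of skeletal muscle genes (12 of 13 features with a count) stood at 196 and 71.8 CPM without S7 and at 6.63 and 4.50 with it. The macrophage, lymphocyte, endothelial, neural and muscle sums differed between the sides, and their part in the results was not tested. In bulk RNA, fewer cells of a type and less RNA per cell cannot be told apart. Myh2, a fast skeletal myosin, stood at 60.4 and 13.3 CPM without S7 and at 0.818 and 1.41 with it (-4.73 ± 0.65, adjusted p = 0.00145), and Scg2, a secretory granule protein of neuroendocrine cells, at 23.6 and 18.4 CPM without S7 and at 0.607 and 0.115 with it (-5.90 ± 0.41, adjusted p = 0.000176), the last on 5 counts in PCL-SE. Their log2 fold changes on day 3 were -4.90 for Myh2 and -6.67 for Scg2. The remaining large falls were Abi3bp, a matrix protein, at 88.2 and 43.2 CPM without S7 and at 0.924 and 0.577 with it (-6.41 ± 0.34), Dcdc2 (-6.33 ± 0.40), the neural adhesion protein Cntn3 (-5.79 ± 0.35), Ptprq (-5.47 ± 0.46), the TNF-family ligand Tnfsf18 (-4.88 ± 0.12) and the chromatin remodeller Smarca1 (-4.59 ± 0.27). Thy1 no longer passed with total-count scaling (-0.19), without the PCL-S library of day 3 (-0.41), without the PCL-SE library of day 3 (-0.41) and without the PCL-SE library of day 7 (-0.27). Dcdc2 was at -7.23, Map2 at -1.49, Myh2 at -3.73 and Scg2 at -7.41 without the PCL-S library of day 7. Map2 was at -3.00, Myh2 at -5.84 and Scg2 at -5.14 without the PCL-SE library of day 7. Myh2 was at -3.85 and Ptprq at -4.66 without the PCL-O library of day 7. Myh2 was at -5.39 and Ptprq at -6.07 without the PCL-E library of day 7.

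Reference genes did not all hold still. Gapdh rose (0.55 ± 0.09) and Actb fell (-0.73 ± 0.09), while Tbp (0.23 ± 0.11), Ywhaz (-0.19 ± 0.08) and Hprt1 (0.11 ± 0.13) did not pass. Within the sides the libraries were closer to each other than across them. PCL-SE and PCL-S differed 2-fold or more for 26 of 10431 genes (log2 ratios of normalised CPM with 2 added, no test), with a median absolute log2 ratio of 0.095. PCL-E and PCL-O did so for 168 genes, with a median of 0.176. Akr1b8 and Angptl4 were among the genes apart within that pair (log2 ratios 3.62 and 3.67). Tbp passed with total-count scaling (0.46). Ywhaz passed in DESeq2 (-0.19), with upper-quartile scaling (-0.26), with the length trend removed (-0.27) and without the PCL-O library of day 7 (-0.22).

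**Figure D5:**
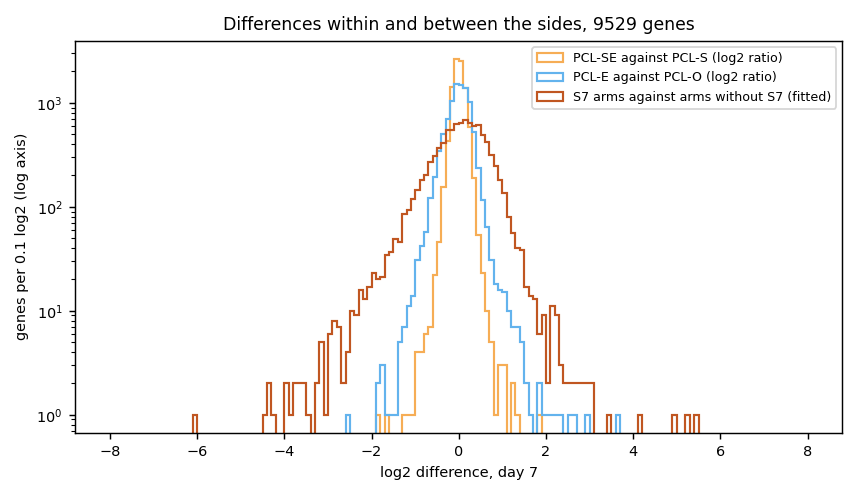
Number of genes (y axis, log scale) at each log2 difference on day 7 (x axis) for PCL-SE against PCL-S, PCL-E against PCL-O and the fitted S7 effect, over the 9529 genes at 5 CPM or more on both sides. The PCL-SE to PCL-S differences are the narrowest and the S7 effects the widest; pair ratios have 2 CPM added and fitted effects do not.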

How the data were processed

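Messenger RNA was measured in 8 libraries made with a SMARTER mRNA kit, per the labels' protocols. The deposited table gives whole-number counts per feature and library, per the file headers, and FPKM values that the authors scaled for length and library, per the file headers. FPKM served only to derive gene lengths (15347 features). The sources used here name no aligner or counter, and mm10 comes from the submitters' processing notes. Lines that are fragments of annotation text (10 of 26883) were left out, and the authors' own comparison columns were not used here.

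In edgeR 4.0.16 (R 4.3.3), filterByExpr removed low counts and TMM scaled the rest. A quasi-likelihood model with terms for S7, day, S7 by day, and E7, fitted to all 8 libraries (15942 genes, 3 residual degrees of freedom, a biological coefficient of variation of 0.137), gave the S7 effect on day 7 and its difference from day 3, called at a Benjamini-Hochberg adjusted p under 0.05. Total counts of 32950326 to 41754124 per library set the counting precision, and errors are standard errors of log2 fold changes. On counts simulated for this comparison (15942 genes, 200 changed), the test recovered 57.5% of changes of 2-fold and 79.5% of those of 4-fold, with 9.45% and 6.47% of its calls false. Apart from the 200 changed genes, all simulated arms of a day shared the same mean, with no E7 effect. The simulated spread was that of the fit and not that between cultures. In the data 51.0% of tested genes were called, so these false shares do not carry over to it.

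The genes named are the 15 with the largest rise and the 15 with the largest fall (called, sides not overlapping, counts in all 4 libraries), the 10 with the largest rise and fall in mean CPM, any gene of 56 lists, and 5 reference genes. The list genes shown were picked with their values in view. Genes whose symbol belongs to several features, such as Itprip, appear only in the figure of named genes. Members and lists were chosen with earlier results of these data known. The alternatives were DESeq2 1.42.0, other scalings, no filter, the day 7 libraries alone, no E7 term, a 2-fold minimum, removal of a gene length trend and leaving out each library. Python 3.11.15 with pandas 2.3.3 and matplotlib 3.10.9 made tables and figures.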

Additional observations from a re-analysis of the deposited data

Results flagged for a closer look

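The S7 effect passed the test in opposite directions on day 3 and day 7, and the difference between the days passed as well, for 11 genes named above. These 11 were sought among the named genes only. Of the 9529 genes at 5 CPM or more on both sides, 3234 rose on day 7, and 65 of those were called lower on day 3. Another 2418 fell on day 7, and 185 of those were called higher on day 3. Over all genes tested, 7.10% were called higher on day 3 and 6.87% lower. The 185 are near that share of the 2418, so their number alone shows no excess of reversals. The change of the log2 fold change from day 3 to day 7 was -1.97 for Top2a, -1.98 for Kif23 and -1.63 for Mki67, the mitosis genes. It was -2.45 for Col4a1, -2.44 for Col5a1 and -4.75 for Dcn, which encode matrix proteins. Pdia4, a chaperone of the endoplasmic reticulum, changed by -1.78, the vitamin D receptor gene Vdr by -2.85 and the stromal surface gene Thy1 by -0.86. The values for Cdkn1a (1.57) and Mdm2 (1.64), both p53 targets, were positive.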

How the results depend on the processing

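Replicates could not be paired because the labels carry no replicate numbers and each arm and day has 1 library. Arms with and without S7 were matched only through the E7 term, and 8303 genes were called without that term. The number of genes called (8137, of which 3965 higher and 4172 lower) stayed within 1.5 times of itself under every setting except 2. With a 2-fold minimum, a stricter question, 1166 genes passed (264 higher and 902 lower), and 356 did for the difference between the days (4578 in the fit above). Leaving out single libraries gave 5003 (PCL-S of day 7 left out) to 8326 genes, 2341 to 4099 of them higher and 2662 to 4227 lower. For the difference between the days it gave 1537 to 6219 genes. The lowest count came from leaving out the PCL-SE library of day 3 and the highest from leaving out PCL-E of day 7. The day 3 libraries of PCL-O, PCL-S and PCL-E gave 1743, 1862 and 2244, and the day 7 library of PCL-S gave 2278. Total-count scaling raised the genes higher by 2-fold from 949 to 1631. With 0.5 CPM added in place of 2, an alternative chosen after seeing the data, 45 in place of 26 genes differed 2-fold between PCL-SE and PCL-S. Of the named genes, Cyp1a1 passed as lower (-0.90, adjusted p = 0.0086) when the PCL-O library of day 7 was left out and as higher (5.32) when that of PCL-E was. The causes were not tested. Genes near 3 counts per library cannot be compared at this depth.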
